A study of Mus musculus with 7 samples.

Results

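The miR-26 family of the mouse comprises mmu-miR-26a and mmu-miR-26b with their star products, and it was followed here in small RNA of the hippocampus. Its members were taken by name, as all ids with the stems miR-26a and miR-26b, and by position, as the mature loci in introns of Ctdsp1, Ctdsp2 and Ctdspl. This gave 5 mature sequences of 756 and 6 mature loci of 806, and each comparison table that was deposited listed 5 of these names among 757. There were 7 small RNA libraries, each of hippocampi pooled from adult C57BL/6 mice of 3 to 5 months. Library 1 came from non-trained controls (labelled wildtype), library 2 from non-trained NIPP1* mice, libraries 3, 4 and 5 from trained controls, and libraries 6 and 7 from trained NIPP1* mice. NIPP1* mice carried a tetO-driven, EGFP-tagged fragment of the nuclear inhibitor of protein phosphatase 1 (PP1), namely the part that binds PP1. A transactivator under the CaMKIIalpha promoter, which is active in forebrain neurons, switched the fragment on under a doxycycline diet, and the controls were littermates. Training was an object recognition task, and non-trained mice met the chamber without objects. The paper states that the hippocampi were collected soon after the end of training, so later times were not covered. How mice were divided among the libraries of a group is not given in the sources used here, so p-values measure the spread between these libraries, which may be technical.

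A miRNA is cut from a hairpin. The arm that accumulates is loaded into Argonaute and pairs with target mRNAs through its seed, bases 2 to 8, and the product of the opposite arm is called the star product. The miR-26 hairpins lie in introns of genes for small phosphatases of the carboxy-terminal domain of RNA polymerase II. These phosphatases act with the repressor REST to keep neuronal genes silent in cells that are not neurons. miR-26 is known to accompany neuronal differentiation and to target one of these host genes.

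The mature sequences are printed with the seed in capitals, because they show which products share a seed and why 2 loci cannot be told apart. They come from RefSeq, and the mm9 genome (NCBIM37) holds the same letters at each locus.
mmu-miR-26a: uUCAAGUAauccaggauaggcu
mmu-miR-26b: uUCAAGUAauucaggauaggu
mmu-miR-26a-1*: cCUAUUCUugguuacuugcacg
mmu-miR-26a-2*: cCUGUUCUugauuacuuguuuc
mmu-miR-26b*: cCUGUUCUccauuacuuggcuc

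miR-26a and miR-26b were the only 2 of the 756 sequences with their seed. Over the 21 positions they have in common, counted from 1 at the 5′ end, 19 were the same, none of the differences fell in the seed, and the substitutions from miR-26a to miR-26b were C11U and C21U. miR-26a is 22 nt and miR-26b 21 nt long. The star products miR-26a-2* and miR-26b* shared another seed, which no other sequence held, and differed at 4 of 22 positions. miR-26a-1* differed from miR-26a-2* at 6 of 22 positions, 1 of them in the seed (A4G).

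The 3 hairpins are printed with both arms in capitals, to show that the letters of the 5′ arm are the same in Mir26a-1 and Mir26a-2 while the star arms differ.
Mir26a-1: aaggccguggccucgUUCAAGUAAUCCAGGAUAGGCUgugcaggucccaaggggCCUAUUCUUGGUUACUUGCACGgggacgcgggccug
Mir26a-2: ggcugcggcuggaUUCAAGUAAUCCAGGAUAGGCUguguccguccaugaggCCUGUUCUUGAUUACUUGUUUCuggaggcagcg
Mir26b: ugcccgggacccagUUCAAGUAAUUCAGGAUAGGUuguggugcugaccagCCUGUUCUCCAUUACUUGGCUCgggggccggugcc

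All loci lie on the + strand, in the orientation of their host gene. miR-26a maps to chr9:118940929-118940950, in Mir26a-1 within intron 5 of 7 of Ctdspl, and to chr10:126432599-126432620, in Mir26a-2 within intron 5 of 7 of Ctdsp2. miR-26b maps to chr1:74440898-74440918, in Mir26b within intron 4 of 6 of Ctdsp1. In the annotation (GENCODE vM1) the intron was found in 2 of 2 coding transcripts of Ctdspl, 1 of 2 of Ctdsp2 and 1 of 2 of Ctdsp1. The star products lie downstream in the same hairpins, miR-26a-1* at chr9:118940968-118940989, miR-26a-2* at chr10:126432637-126432658 and miR-26b* at chr1:74440934-74440955. The 2 loci of miR-26a held the same value in every library, so only the star products tell which hairpin a read came from. Host mRNAs were not measured in these libraries.

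The deposited values are the percent of the miRNA reads of a library, given here as RPM (the percent multiplied by 10000). The libraries held 7285201 to 10017745 miRNA reads, so 1 read was worth 0.0998 to 0.137 RPM. The labels and the deposited comparison tables place the trained libraries in opposite ways. For miR-26b, the table's mean for trained controls was 17451 reads after size factors, within 0.1% of the rebuilt mean of libraries 6 and 7 (17445), whereas libraries 3, 4 and 5, which are labelled trained control, gave 19244. For all 5 members the mean of the libraries with the other label lay within 0.1% of the tables. Groups follow the labels here, the log2 fold changes of miR-26a and miR-26b that rest on the genotype of the trained libraries are given both ways, and nothing in the files decides between them. The transgene is not seen in small RNA, and no library's genotype could be checked. In whole tissue, fewer cells of a type and less of an RNA per cell cannot be told apart.

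miR-26a was among the most abundant miRNAs of the hippocampus, whereas miR-26b was present at a far lower level. miR-26a stood at 45090 RPM in the non-trained control, 49480 RPM in the non-trained NIPP1* library, 52190, 49030 and 51630 RPM in the trained controls, and 52630 and 51420 RPM in the trained NIPP1* libraries. The lowest value was that of the non-trained control, and the trained range of 49030 to 52630 RPM held the non-trained NIPP1* value. The mean was 50210 ± 2627 RPM (SD, n = 7), the 6th highest of the 756 sequences.

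miR-26b stood at 2625 RPM in the non-trained control, 2183 RPM in the non-trained NIPP1* library, 2501, 2124 and 2261 RPM in the trained controls, and 2122 and 2197 RPM in the trained NIPP1* libraries. Here the non-trained control was the highest library, and the trained range again held the non-trained NIPP1* value. The mean was 2288 ± 197 RPM (SD, n = 7), in 50th place.

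**Figure D1:**
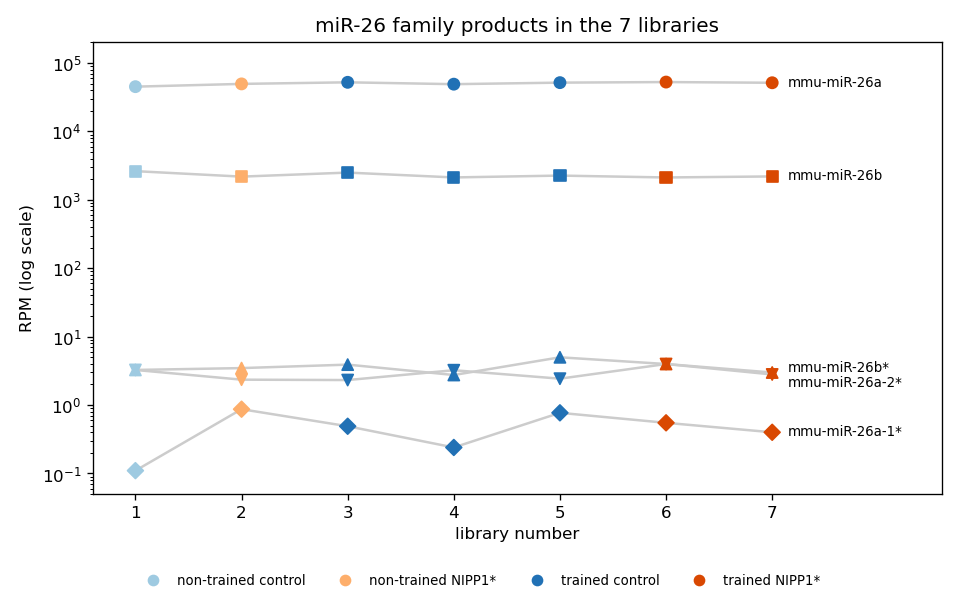
RPM of the 5 products of the miR-26 family (log axis) in each of the 7 libraries, coloured by group; lines join the values of 1 product. miR-26a lies near 50210 RPM and miR-26b near 2288 RPM in every library, and the 3 star products lie below 5 RPM.

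Both arms varied less between libraries than most miRNAs of at least 100 RPM. The coefficient of variation was 5.23% for miR-26a and 8.62% for miR-26b, against a median of 11.2% over 181 such miRNAs, of which 9 varied less than miR-26a and 44 less than miR-26b. The highest library exceeded the lowest by 1.17-fold for miR-26a and by 1.24-fold for miR-26b.

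In the order of mean levels, miR-26a stood below miR-128, a neuronal miRNA (61486 ± 5901 RPM), and let-7c (54504 ± 7847 RPM), and above let-7f (40525 ± 4209 RPM) and let-7a (40497 ± 3478 RPM; SD, n = 7 for each). miR-128 was above miR-26a in 7 of 7 libraries, but its copies differed in the deposited values, by up to 2.67 percent of miRNA reads, so its mean is uncertain. let-7c was above miR-26a in 4 of 7 libraries and did not differ from it beyond the spread, and let-7f and let-7a were below it in 7 of 7. The let-7 miRNAs are close in sequence, so their levels are uncertain where reads could fit more than 1 of them. The study's methods speak of reads that map to miRNAs uniquely. The deposited percents of a library, however, summed to 170% to 174% over all loci and to about 100% with copies joined. Reads of a sequence with several loci were thus counted at more than 1 locus. All neighbours of miR-26b overlapped with it, namely miR-181b (2359 ± 261 RPM), miR-369-3p (2339 ± 377 RPM), miR-185 (2252 ± 192 RPM) and miR-379 (2214 ± 248 RPM; SD, n = 7 for each).

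The question of the first comparison was whether training changed the family. Neither arm changed beyond the spread between libraries. In control mice, the log2 fold change of RPM from non-trained to trained was 0.18 for miR-26a (SE 0.092, 95% interval -0.042 to 0.394, limma adjusted p = 0.666) and -0.20 for miR-26b (SE 0.147, interval -0.545 to 0.151, limma adjusted p = 0.677). The 3 trained libraries lay above the non-trained one for miR-26a and below it for miR-26b. With the grouping of the tables the values were 0.21 and -0.28. TMM, edgeR and DESeq2 each gave 0.27 for miR-26a, and for miR-26b -0.11, -0.10 and -0.10. limma called 0 of 476 miRNAs here (0%), with 28 at an unadjusted p under 0.05, edgeR called 0 with 26, and DESeq2 called 1 with 28, and no member was among the calls. The median over the 476 miRNAs was -0.09.

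In NIPP1* mice the log2 fold change with training was 0.07 for miR-26a (SE 0.098, limma adjusted p = 0.999) and -0.02 for miR-26b (SE 0.156, limma adjusted p = 0.999), the latter turning above 0 under TMM scaling, edgeR, DESeq2 and the grouping of the tables. With the grouping of the tables the values were 0.04 and 0.07, and DESeq2 gave 0.11 for miR-26a. limma called 0 of 476 (0%), with 21 at an unadjusted p under 0.05, edgeR called 0 with 22, and DESeq2 called 2 with 20. Both comparisons rest on 1 non-trained library, whose spread was taken from the replicated groups.

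Over both genotypes, a comparison that does not depend on which trained libraries carried NIPP1*, miR-26a was at 51380 ± 1397 RPM (SD, n = 5) in trained libraries, with a log2 fold change of 0.12 (SE 0.074, interval -0.046 to 0.288, limma adjusted p = 0.816). miR-26b was at 2241 ± 156 RPM (SD, n = 5), with -0.10 (SE 0.113, interval -0.353 to 0.157, limma adjusted p = 0.892), and TMM, edgeR and DESeq2 gave -0.03, -0.04 and -0.03. For miR-26a these gave 0.18 to 0.19. Leaving out the non-trained control gave 0.05 for miR-26a and 0.04 for miR-26b, and leaving out the non-trained NIPP1* library gave 0.19 and -0.23. limma called 0 of 476 (0%), with 26 at an unadjusted p under 0.05, edgeR called 0 with 19, and DESeq2 called 1 with 17. All 5 trained libraries lay above both non-trained ones for 0 of the 4 members tested, against 16 of 476 miRNAs (3.36%), and below both for 0 of 4, against 39 (8.19%).

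The non-trained control library was the lowest of the 7 for miR-26a and the highest for miR-26b. Over the miRNAs tested it was the lowest for 53 of 476 (11.1%) and the highest for 93 (19.5%).

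The second question was whether the inhibition of nuclear PP1 changed the family. With 1 library a group and hence no test, the non-trained NIPP1* library exceeded the non-trained control for miR-26a by a log2 ratio of 0.13 (399432 against 400887 reads, exact 95% interval 0.128 to 0.140), and was lower for miR-26b by a log2 ratio of -0.27 (17622 against 23338 reads, interval -0.294 to -0.238). The intervals cover counting error only. Neither arm was past a log2 ratio of 1, nor were miR-26a-2* and miR-26b*, whereas 9 of 482 miRNAs were (1.87%). miR-26a-1*, with 7 against 1 reads, had a log2 ratio of 2.95 with an exact interval from -0.01 to 8.44, and was too rare to be counted among these.

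In trained mice, by the labels, miR-26a was at 50950 ± 1686 RPM (SD, n = 3) in controls and had a mean of 52025 RPM in the 2 NIPP1* libraries. Its log2 fold change was 0.03 (SE 0.073, limma adjusted p = 0.937), which turned below 0 under TMM scaling, edgeR, DESeq2 and the grouping of the tables. miR-26b was at 2295 ± 191 RPM (SD, n = 3) in controls and had a mean of 2160 RPM in NIPP1* libraries, a log2 fold change of -0.08 (SE 0.116, limma adjusted p = 0.859) by the labels, 0.08 by the tables, -0.16 under TMM and edgeR and -0.14 under DESeq2. Without the first trained control library (library 3) it was -0.02 and without library 4 it was -0.14, and miR-26a was at 0.0031 without library 4, at 0.05 without library 3 or 7 and at 0.01 without library 6. limma called 0 of 476 (0%), with 34 at an unadjusted p under 0.05, edgeR called 0 with 34, and DESeq2 called 1 with 30.

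For NIPP1* against control over both training states, the log2 fold change was 0.06 for miR-26a (SE 0.069, limma adjusted p = 0.987) and -0.14 for miR-26b (SE 0.10, limma adjusted p = 0.987). With the grouping of the tables they were 0.02 and -0.02. Over the alternatives run, miR-26a ranged from 0.0061 (edgeR) to 0.082 and miR-26b from -0.19 to -0.02. Without either non-trained library they were 0.03 and -0.08. This repeats trained NIPP1* against trained control, since the 1 non-trained library left is then fitted exactly. limma called 0 of 476 (0%), with 10 at an unadjusted p under 0.05, edgeR called 0 with 9 and DESeq2 0 with 5. With the grouping of the tables limma called 3 miRNAs, none of the family.

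**Figure D2:**
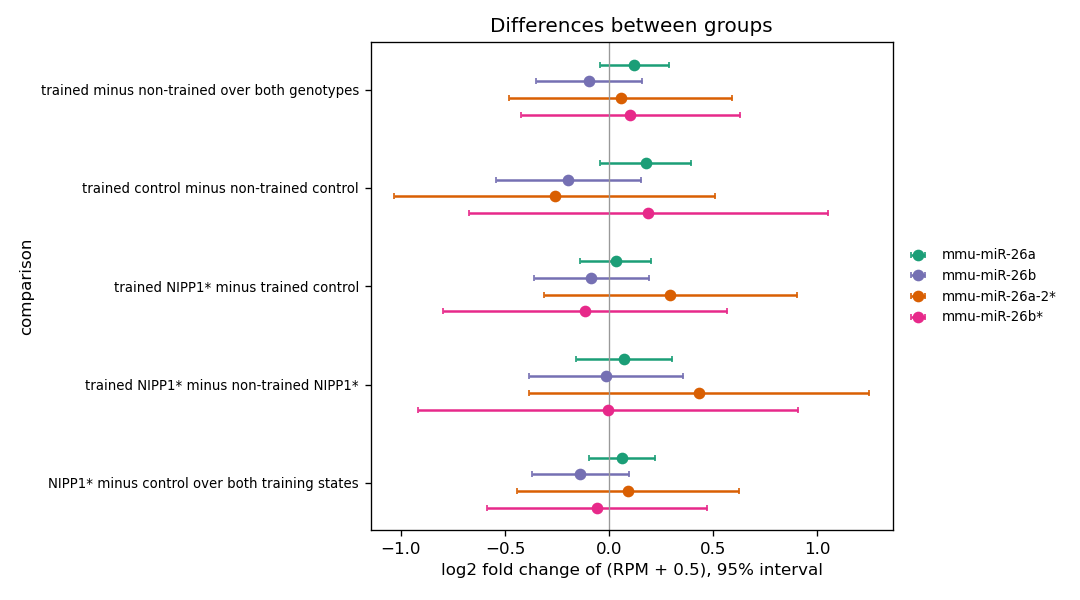
Log2 fold changes of log2(RPM + 0.5) with 95% limma intervals (horizontal axis) for the 4 members tested in each of the 5 comparisons (vertical axis). All 20 intervals include 0, and those of the star products, which rest on 19 to 39 reads a library, are the widest.

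The levels of miR-26a and miR-26b were closest in the non-trained control library, and their ratio within a library needs no scaling. The ratio of miR-26a to miR-26b was 17.2 in the non-trained control, 22.7 in the non-trained NIPP1* library, 20.9, 23.1 and 22.8 in the trained controls, and 24.8 and 23.4 in the trained NIPP1* libraries. The non-trained control had the lowest ratio, and 4 of the 5 trained libraries lay above both non-trained ones. The difference in mean log2 ratio between trained and non-trained was 0.22 (exact two-sided permutation p = 0.190, adjusted p = 0.6 over 6 tests, smallest p possible 0.0952), and it was 0.02 without the non-trained control library and 0.42 without the non-trained NIPP1* library. Both trained NIPP1* libraries had a higher ratio than the 3 trained controls, by a log2 difference of 0.12 (exact permutation p = 0.200, the smallest possible with 2 against 3, adjusted p = 0.6), which is -0.12 by the grouping of the tables. Without library 3 the difference was 0.07, and the same without library 6.

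**Figure D3:**
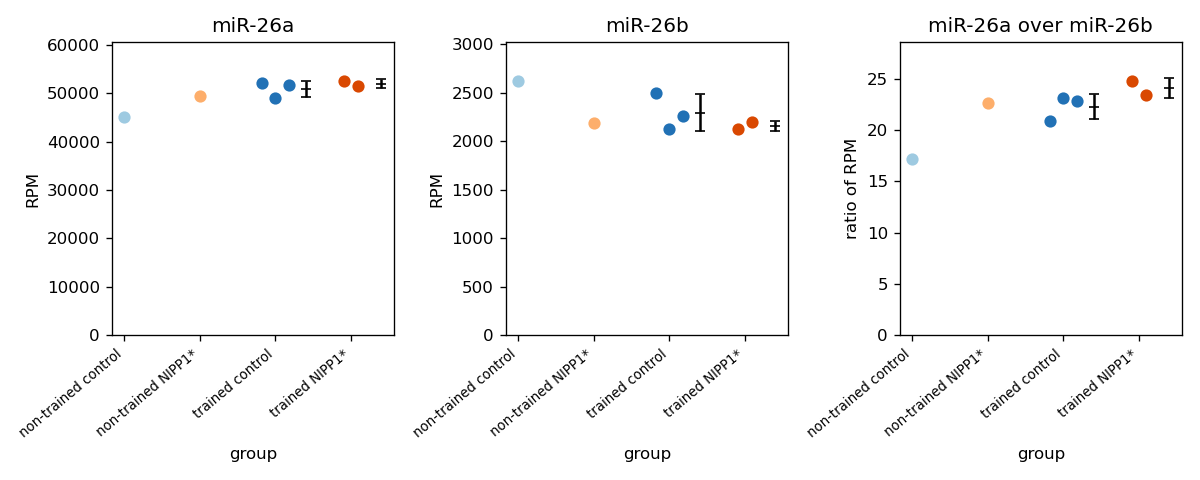
RPM of miR-26a and of miR-26b and the ratio between them (vertical axes, from 0) in the 4 groups; each point is a library and the bars give the mean ± SD of groups with more than 1 library. The ratio is lowest, at 17.2, in the non-trained control and lies between 20.9 and 24.8 in the other libraries.

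Together the 5 products made up 4.77% of miRNA reads in the non-trained control, 5.17% in the non-trained NIPP1* library and 5.12% to 5.48% in the trained libraries. Of the reads with the shared seed, 94.5% to 96.1% came from miR-26a.

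The star products were rare in all libraries. miR-26b* had 29 reads in the non-trained control (3.26 RPM), 28 in the non-trained NIPP1* library (3.47 RPM), 32, 23 and 39 in the trained controls (3.90, 2.75 and 4.99 RPM), and 29 and 30 in the trained NIPP1* libraries (3.98 and 2.99 RPM). miR-26a-2*, from the hairpin in Ctdsp2, had 29 and 19 reads in the non-trained libraries (3.26 and 2.35 RPM), 19, 27 and 19 in the trained controls (2.32, 3.23 and 2.43 RPM), and 29 and 28 in the trained NIPP1* libraries (3.98 and 2.80 RPM). miR-26a-2* was lower in all trained controls than in the non-trained control and higher in both trained NIPP1* libraries than in the non-trained NIPP1* library. By the labels, such opposite moves with training were seen in 1 of the 4 members tested and in 104 of 476 miRNAs (21.8%). By the grouping of the tables they were seen in 0 of these 4 members, miR-26a-2* included, and in 43 of 476 miRNAs (9.03%). Neither star product was called in any of the 5 limma comparisons (adjusted p between 0.738 and 0.999).

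miR-26a-1*, from the hairpin in Ctdspl, had 1 and 7 reads in the non-trained libraries, 4, 2 and 6 in the trained controls, and 4 and 4 in the trained NIPP1* libraries. It was the 1 member that did not reach the mean of 10 reads required for the tests. It gave 28 of the 198 star reads of miR-26a, 14.1% (exact Clopper-Pearson 95% interval 9.61% to 19.8%), and the rest came from miR-26a-2*. The intervals of single libraries, from 0.0844% to 17.2% in the non-trained control and from 11.6% to 47.8% in the non-trained NIPP1* library, overlapped.

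Star reads were a larger part of the reads of both arms in the hairpin of miR-26b than in those of miR-26a. In the non-trained control the star share was 0.124% for miR-26b and 0.00748% for miR-26a, and in the non-trained NIPP1* library 0.159% and 0.00651%. In the trained libraries it ranged from 0.129% to 0.220% for miR-26b and from 0.00537% to 0.00861% for miR-26a. The share of miR-26b was higher in 7 of 7 libraries, by 16.6-fold to 35.5-fold (exact two-sided sign-flip permutation p = 0.0156, the smallest that 7 libraries allow). Comparing the star shares of trained and non-trained libraries gave an exact two-sided permutation p of 0.667 for miR-26a and 0.476 for miR-26b (adjusted p = 0.8 and 0.714 over 6 tests), and comparing the trained genotypes gave 0.4 and 1 (exact permutation, adjusted p = 0.714 and 1). The smallest p possible was 0.0952 for 5 against 2 libraries and 0.2 for 2 against 3, so neither comparison could reach 0.05. All intervals cover counting error only. They take reads as independent molecules, which PCR reads are not, so they may be too narrow.

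**Figure D4:**
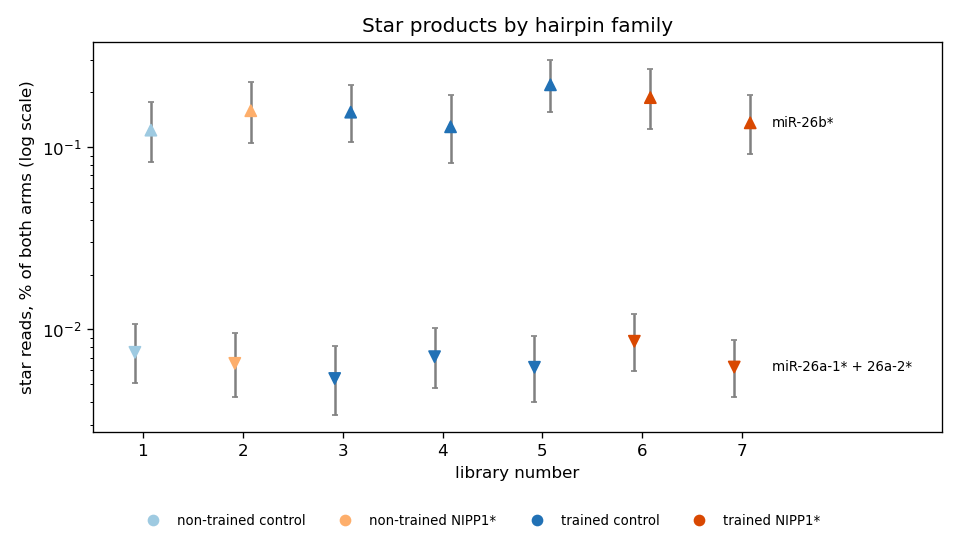
Star reads as a percent of the reads of both arms (log axis) in each of the 7 libraries for miR-26b and for both miR-26a hairpins together; bars are exact 95% binomial intervals. The share of miR-26b lies between 0.124% and 0.220% and that of miR-26a between 0.00537% and 0.00861%.

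Pearson's r of log2 RPM between the mature arms was -0.51 over the 7 libraries, a description in which both values of a library share its total. It was 0.42 over the 6 libraries other than the non-trained control. Leaving out any other library gave from -0.81 (without library 3) to -0.42 (without library 6). Among the 319 miRNAs whose mean reached 100 reads, the profiles most like that of miR-26a were those of miR-299* (r = 0.84), miR-129-1-3p (0.81), miR-212-3p (0.79), miR-484 (0.79) and miR-191 (0.77). Those most like miR-26b were miR-135a (0.89), miR-21 (0.86), miR-598 (0.84), miR-135b (0.83) and miR-103 (0.82).

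7 miRNAs known as targets of REST were set beside the family, miR-9, miR-9*, miR-124, miR-132, miR-212, miR-29a and miR-29b, of which miR-29a and miR-29b are also in the list of astrocyte markers. Of these 7, 0 were called in any of the 5 limma comparisons. With training over both genotypes their median log2 fold change was 0.03, with 4 above and 3 below 0, against -0.06 over all 476 miRNAs. With training in controls their median was -0.07, with 3 above and 4 below 0, against -0.09 over all 476. By the labels, 6 were above and 1 below 0 in each of the comparisons that follow. The median was 0.09 with training in NIPP1* mice, against -0.03 over all 476. It was 0.06 for trained NIPP1* against trained control and 0.07 for NIPP1* against control, against 0.04 over all 476 in both. Of 312 other miRNAs with all loci in introns of protein-coding genes on the same strand, 182 were tested and 0 were called in the 5 comparisons, with a median log2 fold change of -0.06 with training over both genotypes.

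The tissue carried miRNAs of neurons, astrocytes, oligodendrocytes, vessels, microglia and blood, and none of the marker miRNAs of these lists was called in the 5 limma comparisons by the labels. With the grouping of the tables, limma called the oligodendrocyte marker miR-219-5p for NIPP1* against control (log2 fold change -1.05, adjusted p = 0.0445). The summed neuronal markers miR-124 and miR-128 were at 58045 RPM in the non-trained control, 69704 RPM in the non-trained NIPP1* library and 62476 to 75577 RPM in the trained libraries. miR-128 made up most of this sum, and miR-124 alone was at 4085 and 4054 RPM in the non-trained libraries and at 3637 to 5135 RPM in the trained ones. The 2 oligodendrocyte markers, miR-338-3p and the rarer miR-219-5p, summed to 4808 RPM in the non-trained control and 3845 RPM in the non-trained NIPP1* library, to 3299, 2766 and 2970 RPM in the trained controls and to 4375 and 4123 RPM in the trained NIPP1* libraries. By the labels, both trained NIPP1* libraries lay above all trained controls. How many of all miRNAs tested did so was not counted. By limma, trained NIPP1* against trained control gave a log2 fold change of 1.13 for miR-219-5p (adjusted p = 0.331) and 0.50 for miR-338-3p (adjusted p = 0.435), and training in controls gave -0.96 (adjusted p = 0.666) and -0.68 (adjusted p = 0.583). Each of these values was at an unadjusted p under 0.05. With training in NIPP1* mice the log2 fold change was 1.03 for miR-219-5p and 0.14 for miR-338-3p. These fold changes follow the labels. The grouping of the tables reverses the sign of the difference between the trained genotypes, and the values it gives these markers for training are not given here. The 5 astrocyte markers summed to 153549, 158528 and 136362 to 157048 RPM, and the 4 vessel markers to 14824, 14791 and 15486 to 18452 RPM. The 2 red blood cell markers found of 3, miR-144 and miR-451, summed to 116 and 85.0 RPM in the non-trained libraries. They summed to 126, 61.9 and 62.3 RPM in the trained controls and to 132 and 251 RPM in the trained NIPP1* libraries. By the labels the latter were again above all trained controls (log2 fold change 1.37 for miR-144 and 1.19 for miR-451, limma adjusted p = 0.639 for both). The grouping of the tables reverses the sign of these 2 fold changes by construction. The 4 microglial markers summed to 1024, 1302 and 799 to 1065 RPM, and the 3 choroid plexus markers, of which miR-211 was at 0 in 1 library, to 600, 803 and 408 to 1161 RPM. Their part in the values of miR-26a and miR-26b was not tested.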

How the data were processed

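Small RNA of 7 libraries of pooled mouse hippocampus was measured. The authors prepared libraries with the TruSeq kit, base-called with CASAVA 1.7.0, retained inserts between 19 and 26 nt, aligned these to mm9 with Bowtie through ncPRO-seq and deposited the percent of miRNA reads at each mature locus. The authors also deposited 4 comparison tables. The signal that the authors deposited in these tables is a group mean of size-factor-normalised reads. It was used here only to check groups and recovered reads and to name sequences by their reads. The fold change, p-value and residual variance score that the authors deposited in them were not used, nor were 2 columns of values per library.

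Percentages were turned into RPM, and the values at loci of 1 mature sequence were averaged. Of 45 sequences with more than 1 locus, miR-26a included, 23 had equal values at their loci in every library, and for the others the mean is uncertain by the difference between loci. Of the sequences, 641 were named by an exact RefSeq match, 19 by the core and 49 by their reads alone, and 47 had no name. The steps between low values gave back whole reads (100% within 0.1 of a whole read), with totals of 7285201 to 10017745. The design took each group from the labels. limma 3.58.1 was run on log2(RPM + 0.5) with a trend for the 476 miRNAs whose mean reached 10 reads, with calls at an adjusted p (Benjamini-Hochberg) below 0.05. The pseudocount shrinks fold changes of rare miRNAs. The study names a Wilcoxon test, which these group sizes do not allow to reach 0.05. Ratios were compared by exact permutation tests.

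Changes of 4-fold were simulated in 200 of 476 miRNAs, and none as small as those of the family. The test was run on these simulated data. In its first form, with changes drawn at any level and libraries scaled to their totals, it recovered the changed miRNAs but many of its calls were false wherever abundant miRNAs shifted the total. The same simulated reads scaled by TMM or by their true depth, and a simulation added afterwards with changes in less abundant miRNAs only, gave few false calls. Scaling to the total, which the deposited percent imposes, is therefore sensitive to shifts of abundant miRNAs such as miR-26a itself. In the real libraries the TMM factors were between 0.949 and 1.034, and TMM is among the alternatives.

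Alternatives were TMM, edgeR 4.0.16 and DESeq2 1.42.0 on recovered reads, pseudocounts of 0.1 and 1, minimums of 1 and 100 reads, only the groups compared, the grouping of the tables and leaving out each library. The interaction of training with genotype and the correlation of the mature arms without each library were added after the data were seen. The text names all members, the 5 miRNAs most alike to each mature arm, 2 neighbours above and below in level, and at most 3 of each list by value. The members and lists were chosen with earlier results of these data known. Analyses used R 4.3.3, pandas 2.3.3, scipy 1.17.1 and numpy 2.4.6 under Python 3.11.15.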

Additional observations from a re-analysis of the deposited data

Results flagged for a closer look

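For 2 star products every trained control library moved one way from the non-trained control and every trained NIPP1* library moved the other way from the non-trained NIPP1* library. For miR-26a-2* the mean log2 change of RPM with training was -0.31 in controls and 0.51 in NIPP1* mice, a difference of 0.82. The limma test of that difference, on the scale of log2(RPM + 0.5), gave 0.69 (SE 0.472, adjusted p = 0.790), and 0.11 (SE 0.472, adjusted p = 0.997) with the grouping of the tables. These values rest on 19 to 29 reads a library, and by the labels 104 of 476 miRNAs (21.8%) moved in opposite directions in this way. By the tables' grouping, 43 did (9.03%), and miR-26a-2* did not. That count was added after seeing the data. For miR-26a-1* the mean log2 change was 2.03 in controls and -0.89 in NIPP1* mice, a difference of -2.92, which rests on 1 to 7 reads a library and was not tested. All 5 trained libraries (0.24 to 0.77 RPM) lay between the 2 non-trained ones (0.11 and 0.87 RPM), so its opposite moves are present by either grouping. No labelled group had the 4 libraries needed to look for single libraries apart from their group.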

How the results depend on the processing

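Over 294 refits of members in the 5 comparisons no member was called (smallest adjusted p 0.217), and 28 changed direction. For trained NIPP1* against trained control, miR-26a went from 0.03 to -0.044 under TMM, -0.045 under edgeR, -0.023 under DESeq2 and -0.031 with the grouping of the tables, which gave 0.085 for miR-26b, -0.29 for miR-26a-2* and 0.11 for miR-26b*. For training in NIPP1* mice, miR-26b became 0.0065 under TMM, 0.0069 under edgeR, 0.024 under DESeq2 and 0.069 with the tables, and miR-26b* became 0.014, 0.018, 0.041 and 0.11. The tables also gave 0.032 for miR-26a-2* with training in controls, and -0.33 for miR-26a-2* and 0.10 for miR-26b* for NIPP1* against control. The cause was not tested, except that exchanging the trained genotypes reverses their difference by construction.

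Leaving out 1 library moved miR-26b between -0.23 and 0.035 with training over both genotypes (0.035 without the non-trained control) and between -0.041 and 0.0092 with training in NIPP1* mice (0.0092 without trained NIPP1* replicate 1). miR-26b* ranged from -0.31 to 0.065 between the trained genotypes, from -0.19 to 0.17 with training in NIPP1* mice and from -0.18 to 0.071 for NIPP1* against control, and miR-26a-2* from -0.14 to 0.26 with training over both genotypes and from -0.12 to 0.29 for NIPP1* against control. The star share of miR-26a ranged from -0.00079 to 0.00018 percentage points with training and from -4.06e-06 to 0.0024 between the trained genotypes, and that of miR-26b between the trained genotypes from -0.032 to 0.019. With the tables the latter were -0.0012 and 0.0068 percentage points, and the log2 ratio of miR-26a to miR-26b was -0.12.

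The number of miRNAs called was 0 in each comparison without any 1 library, but the number at an unadjusted p under 0.05 moved, with training in controls from 14 (without library 4) to 108 (without library 3), between the trained genotypes from 10 (without library 7) to 113 (without library 3), with training in NIPP1* mice from 10 (without library 6) to 37 (without library 3), over both genotypes from 6 (without library 1) to 37 (without library 3), and for NIPP1* against control from 3 (without library 6) to 34 (without library 1 or 2). DESeq2 called 1 in trained control against non-trained control (miR-129-2-3p), 1 between the trained genotypes (miR-344d-3*), 2 with training in NIPP1* mice (miR-146a, a microglial marker here, and miR-136) and 1 over both genotypes (miR-129-2-3p). The tables' grouping gave 3 for NIPP1* against control (miR-136, the oligodendrocyte marker miR-219-5p and miR-344d-3*), with 59 at an unadjusted p under 0.05. These were chosen after their values were seen. Past a log2 ratio of 1 between the non-trained libraries were 3 miRNAs when a mean of 100 reads was required. The only library of a group could not be left out of a comparison of that group, so those refits were not run. No paired analysis was possible because the labels give no replicate numbers shared between groups. Depth limits the star products, at 1 to 39 reads a library, and not the mature arms.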
